A study of Mus musculus with 24 samples.

Results

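Mouse neural progenitor cells were followed between 12 and 24 h under 0.2 µM (+)-JQ1, the active enantiomer of a BET bromodomain inhibitor. The time course was taken from the library titles: 3 libraries of 24 h and 3 libraries of 12 h, 6 of the 24 RNA-seq libraries of the study. The progenitors came from the cortex of C57BL/6 embryos at E12, were expanded with basic fibroblast growth factor (bFGF) and were used at passage 3. Per the labels, the compound was given in differentiation medium to 3 separately prepared cultures. The other groups used for comparison were 24 h and 12 h of 0.2 µM (−)-JQ1, the inactive enantiomer, and 24 h and 12 h of 0.5 µM (+)-JQ1, each with 3 libraries. All of these cells had left expansion medium for differentiation medium, and no untreated cells and no 0 h cells were among the libraries used, so each comparison is between 24 h and 12 h of the same treatment. Values are FPKM (fragments per unit of transcript length and of mapped reads) per gene symbol, as deposited.

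BET proteins bind acetylated histones through their bromodomains and help RNA polymerase II to leave the promoter, in part by bringing in the elongation kinase P-TEFb. (+)-JQ1 occupies the acetyl-lysine pocket of these bromodomains, and its mirror image (−)-JQ1 does not bind them appreciably. Cortical progenitors taken out of growth factor normally leave the cell cycle and differentiate into neurons, astrocytes and oligodendrocytes, and the question addressed here is which of these changes still ran between 12 and 24 h with the bromodomains blocked.

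In the 24 h and 12 h libraries of 0.2 µM (+)-JQ1, between 17270 and 17561 symbols had a value above 0, and the correlation between replicates of a group on the log2 scale was 0.947 to 0.968. The size of the smallest steps in the FPKM values put the depth of the 6 libraries within 0.973 to 1.02 of that of 12 h replicate 1. In 24 h replicate 2 the small RNA gene Mir5105 alone took 46.9% of the summed FPKM, against 3.07% to 6.69% in the other 5 libraries. The values of its other genes were not lowered in sum: without Mir5105 they reached 461963 FPKM. The other 5 libraries had 411362 to 469264 FPKM without it. RNAs without a poly(A) tail were highest in 12 h replicate 3: the 32 genes of 5S ribosomal RNA summed to 20, 0 and 61.4 FPKM at 24 h and to 284, 41.4 and 760 FPKM at 12 h. The progenitor markers Nes and Sox2, the neuronal markers Tubb3 and Dcx, the astrocyte marker Gfap and the oligodendrocyte lineage markers Olig2 and Sox10 were all well detected, so markers of progenitors and of all 3 neural lineages were present at both times.

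Between 12 and 24 h under 0.2 µM (+)-JQ1 more genes rose than fell. Of 13801 genes tested with limma, 369 were higher (2.67%) and 86 lower (0.623%) at 24 h at a Benjamini-Hochberg adjusted p under 0.05. A change of at least 2-fold was reached by 56 of the higher genes (0.406%) and by 24 of the lower ones (0.174%), on the log2(FPKM + 1) scale, which understates the change of genes with low levels. The median change of all genes tested was 0.06 log2 units, and after scaling the libraries by the median of ratios the split was 278 higher and 119 lower. The count also depended on single libraries: it was 161 higher and 41 lower without 24 h replicate 1, 237 and 56 without 24 h replicate 2, 323 and 56 without 24 h replicate 3, 221 and 69 without 12 h replicate 1, and 141 and 28 without 12 h replicate 3. In bulk RNA of a mixed culture, fewer cells of a type and less RNA per cell cannot be told apart in any of the changes that follow.

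The named rises included secreted and matrix proteins (Eln, Vtn, Ogn, Thbs1), the actin-binding protein Tagln, the neuronal protein Pcp4, the polarity protein Crb2, the non-coding RNA Dlx6as1 and myelin genes. Pcp4, a small calmodulin-binding protein of neurons, had 43.7, 25.5 and 44.3 FPKM at 24 h, against 5.92, 4.81 and 6.56 FPKM at 12 h. Its 24 h values lay far above every 12 h value, a log2 change of 2.49 (SE 0.224, limma adjusted p = 4.71e-06). Eln, the elastic fibre protein elastin, had 12.2, 17.9 and 12.3 FPKM at 24 h and 1.5, 2.16 and 2.12 FPKM at 12 h. The groups were far apart, with a log2 change of 2.36 (SE 0.228, limma adjusted p = 8.06e-06). Vtn, the adhesive glycoprotein vitronectin, had 32.4, 29.9 and 24.6 FPKM at 24 h and 4.88, 8.05 and 6.26 FPKM at 12 h, with a log2 change of 2.03 (SE 0.212, limma adjusted p = 1.67e-05). Ogn, the small leucine-rich proteoglycan osteoglycin, had 6.30, 3.16 and 5.64 FPKM at 24 h and stayed below 1 FPKM in every 12 h library, with 0.292, 0.965 and 0.811 FPKM (log2 change 1.82, SE 0.347, limma adjusted p = 0.00566). Tagln, an actin-binding protein of smooth muscle and of spreading cells, had 43.8, 34.6 and 28.3 FPKM at 24 h and 8.96, 12.0 and 11.0 FPKM at 12 h, again without overlap (log2 change 1.64, SE 0.268, limma adjusted p = 0.00176).

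Crb2, a protein of the apical polarity complex of neuroepithelial cells, had 5.89, 7.89 and 4.94 FPKM at 24 h and 1.07, 2.31 and 1.20 FPKM at 12 h. Its rise of 1.53 log2 units (SE 0.306) had a limma adjusted p of 0.00735. Dlx6as1, a long non-coding RNA read from the Dlx5 and Dlx6 locus of interneuron progenitors, had 13.6, 6.25 and 15.8 FPKM at 24 h and 2.87, 4.63 and 2.19 FPKM at 12 h (log2 change 1.56, SE 0.289, limma adjusted p = 0.00458). It overlaps Dlx6 on the other strand, and whether the counting used strand is not given in the sources used here, so reads of the 2 genes may not be separated. Thbs1, the matrix glycoprotein thrombospondin 1, had 20.6, 20.7 and 15.5 FPKM at 24 h and 2.26, 7.50 and 2.46 FPKM at 12 h. The groups did not overlap, but 12 h replicate 2 stood above the other 12 h libraries, and the rise of 2.11 log2 units (SE 0.485, limma adjusted p = 0.0214) was no longer called without 24 h replicate 1, 24 h replicate 2, 12 h replicate 1 or 12 h replicate 3 (adjusted p up to 0.111).

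**Figure D1:**
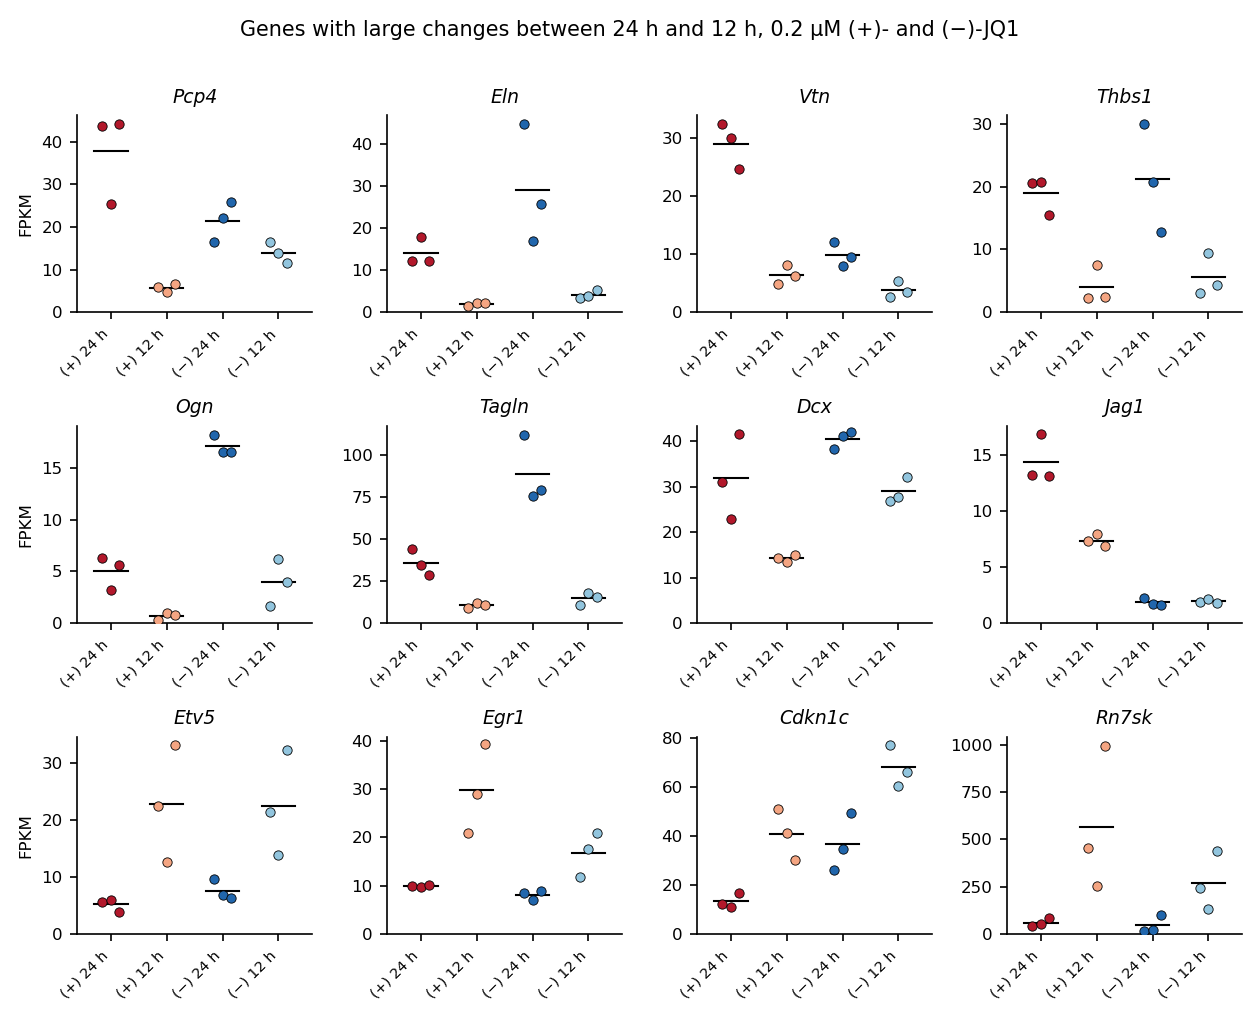
FPKM of 12 genes (1 panel each, linear axis from 0) in each library of 24 h and 12 h under 0.2 µM (+)-JQ1 and of 24 h and 12 h in 0.2 µM (−)-JQ1. Points are libraries and short lines are means of 3; Pcp4 stood at 25.5 to 44.3 FPKM at 24 h and 4.81 to 6.56 FPKM at 12 h under (+)-JQ1, and averaged 21.5 FPKM at 24 h and 14 FPKM at 12 h in (−)-JQ1.

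Eln, Vtn, Ogn, Tagln, Crb2, Dlx6as1 and Thbs1 were also called higher at 24 h in the inactive enantiomer, and Pcp4 was not. In (−)-JQ1, Eln averaged 29.2 FPKM at 24 h and 4.21 FPKM at 12 h (log2 change 2.44, limma adjusted p = 3.45e-06), and Tagln averaged 88.7 FPKM at 24 h and 14.9 FPKM at 12 h (log2 change 2.5, limma adjusted p = 1.44e-05). The difference of the Eln change between the enantiomers was −0.09 log2 units, with a 95% interval of −0.759 to 0.584. At 0.5 µM (+)-JQ1, Pcp4 averaged 41.4 FPKM at 24 h and 4.32 FPKM at 12 h, and Vtn averaged 29.6 FPKM at 24 h and 7.5 FPKM at 12 h. Eln had a log2 change of 1.28 at that dose (limma adjusted p = 0.00323), with 4.96 FPKM at 24 h and 1.46 FPKM at 12 h on average. Tagln, Ogn, Thbs1 and Crb2 did not pass at 0.5 µM (limma adjusted p = 0.0657, 0.052, 0.057 and 0.0886). The difference in change between the doses passed for none of these genes.

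Part of the myelin program rose under (+)-JQ1. Of 15 myelin and mature oligodendrocyte genes tested, 7 were called higher and 0 lower, against 2.67% and 0.623% of all genes, and the median change was 0.74 log2 units against 0.06 for all genes. Of the 15, 9 were higher at 24 h without overlap, against 14.5% of all genes. The summed level of the list was 503, 650 and 421 FPKM at 24 h and 232, 194 and 235 FPKM at 12 h, so every 24 h library was above every 12 h library. Leaving out 1 library at a time left 5 to 7 of the genes called higher, and a fit to the 6 libraries alone left 3.

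Mag, the myelin-associated glycoprotein of the inner myelin layer, had 5.91, 13.6 and 4.24 FPKM at 24 h and 1.34, 1.09 and 1.12 FPKM at 12 h (log2 change 1.89, SE 0.267, limma adjusted p = 0.000404). Its 12 h values lay close together, and 24 h replicate 2 was the highest of all. Cldn11, the tight-junction protein of myelin, had 17.1, 19.7 and 7.90 FPKM at 24 h and 4.40, 2.76 and 5.32 FPKM at 12 h (log2 change 1.57, SE 0.272, limma adjusted p = 0.00271). In the fit to the 6 libraries alone, Mag and Cldn11 were not called (limma adjusted p = 0.0586 and 0.104). Ugt8a, which makes the myelin lipid galactosylceramide, had 35.3, 32.1 and 31.2 FPKM at 24 h and 17.9, 13.9 and 17.8 FPKM at 12 h, a smaller but even change of 0.96 log2 units (SE 0.1, limma adjusted p = 1.67e-05). Cnp, an early enzyme of myelin membranes, had 189, 287 and 201 FPKM at 24 h and 118, 104 and 117 FPKM at 12 h (log2 change 0.97, limma adjusted p = 0.00334).

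Other myelin genes were less steady. Mbp, myelin basic protein, had 89.1, 97.2 and 36.5 FPKM at 24 h and 26.9, 21.8 and 32.3 FPKM at 12 h, and 24 h replicate 3 lay just above the 12 h range. Its rise of 1.32 log2 units (SE 0.299, limma adjusted p = 0.0166) was lost without 24 h replicate 1, 24 h replicate 2, 12 h replicate 1 or 12 h replicate 2 (adjusted p up to 0.0951). Gm98, an older symbol of the myelin transcription factor Myrf, had 12.5, 14.9 and 14.6 FPKM at 24 h and 10.2, 6.45 and 6.45 FPKM at 12 h (log2 change 0.81, limma adjusted p = 0.0247). That call held only with 12 h replicate 1 left out and was lost without any of the other 5 libraries, with an adjusted p of up to 0.135. Mobp and Fa2h had log2 changes of 0.63 and 0.74 that did not pass (limma adjusted p = 0.165 and 0.0873). Opalin, a marker of the most mature oligodendrocytes, was listed at 0 in all 3 libraries of 24 h and in 2 of 3 libraries of 12 h under (+)-JQ1, and averaged 3.79 FPKM at 24 h and 0.958 FPKM at 12 h in (−)-JQ1.

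**Figure D2:**
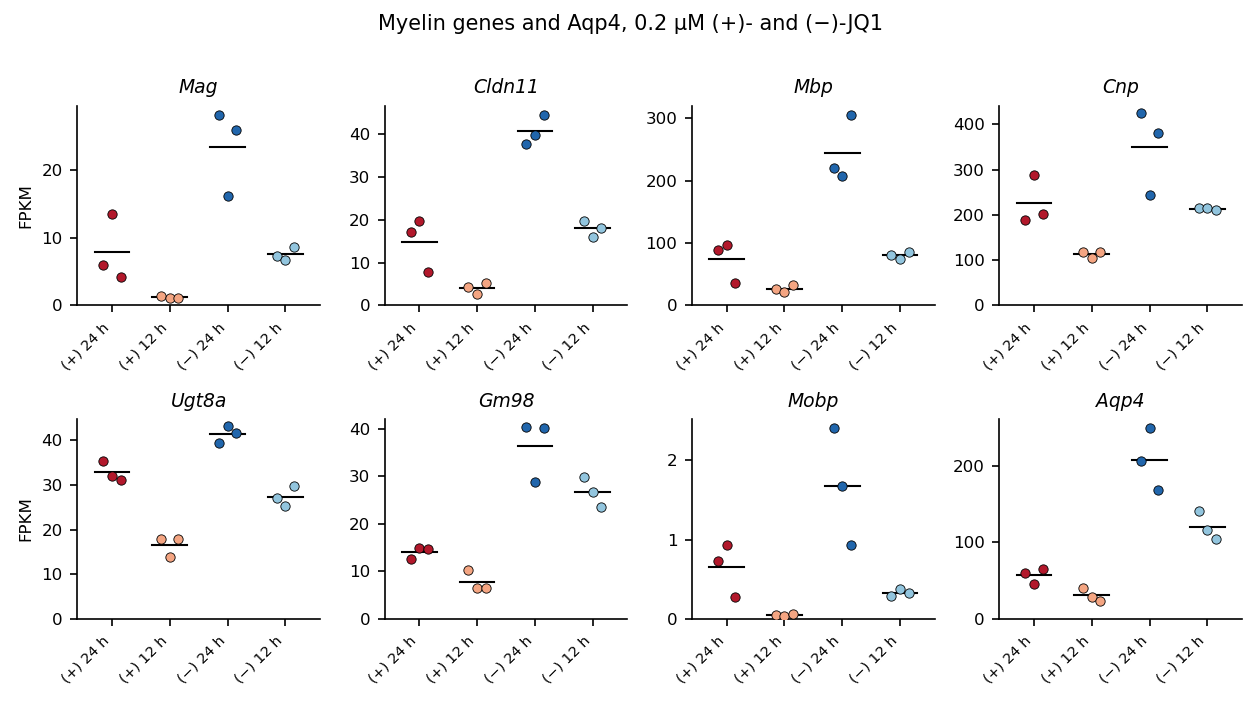
FPKM of 7 myelin genes and the astrocyte gene Aqp4 (1 panel each, linear axis from 0) in each library of 24 h and 12 h under 0.2 µM (+)-JQ1 and of 24 h and 12 h in 0.2 µM (−)-JQ1. Points are libraries and short lines are means of 3; Mag stood at 4.24 to 13.6 FPKM at 24 h and 1.09 to 1.34 FPKM at 12 h under (+)-JQ1, and averaged 23.5 FPKM at 24 h and 7.57 FPKM at 12 h in (−)-JQ1.

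Myelin genes also rose in (−)-JQ1, where their summed level was higher. In (−)-JQ1, 9 of the 15 myelin genes were called higher and 0 lower, against 4.68% and 1.4% of all genes, with a median change of 0.67 log2 units. Their summed level was 1250, 1010 and 1470 FPKM at 24 h and 604, 570 and 578 FPKM at 12 h. Every (+)-JQ1 library of 24 h was above every (+)-JQ1 library of 12 h and at 421 to 650 FPKM spanned the 12 h level of (−)-JQ1. The log2 change of Mag in (−)-JQ1 was 1.48 (limma adjusted p = 0.00206), and the difference between the enantiomers was 0.40 with a 95% interval of −0.381 to 1.19 (limma adjusted p = 0.999). At 0.5 µM (+)-JQ1 the list had 3 genes higher and 0 lower, against 2.77% and 1.44% of all genes, and a median change of 0.29 log2 units.

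Genes of oligodendrocyte precursors and of the premyelinating stage gave a single call with time under (+)-JQ1. Members moved in both directions, and the median change was −0.03 log2 units. Of 16 genes, 8 had an unadjusted p under 0.05, against 2151 of all 13801 genes. Without overlap, 3 were higher and 3 lower, against 14.5% and 5.66% of all genes. By adjusted p, 1 was called higher and 0 lower, against 2.67% and 0.623% of all genes. The 1 gene was Tnr, the matrix protein tenascin R, with 8.08, 11.1 and 11.3 FPKM at 24 h and 6.94, 4.61 and 4.2 FPKM at 12 h (log2 change 0.85, limma adjusted p = 0.0242). Its call was lost without 24 h replicate 2, 24 h replicate 3, 12 h replicate 2 or 12 h replicate 3 (adjusted p up to 0.139). Gpr17, the receptor of the precursor that is about to myelinate, had 44.3, 46.8 and 66.1 FPKM at 24 h and 51.6, 28.5 and 28.5 FPKM at 12 h, with overlapping groups (limma adjusted p = 0.183), while it averaged 347 FPKM at 24 h and 370 FPKM at 12 h in (−)-JQ1. Enpp6, a phosphodiesterase of newly formed oligodendrocytes, had 2.75, 3.13 and 2.96 FPKM at 24 h and 2.39, 1.76 and 2.44 FPKM at 12 h (limma adjusted p = 0.256), and averaged 40.6 FPKM at 24 h and 19.9 FPKM at 12 h in (−)-JQ1. The precursor receptor Pdgfra had 26.2, 29.6 and 23.3 FPKM at 24 h and 25.2, 22.8 and 28.3 FPKM at 12 h. Olig2, the lineage transcription factor, had 247, 231 and 262 FPKM at 24 h and 291, 292 and 366 FPKM at 12 h, lower in each 24 h library but not past the threshold (limma adjusted p = 0.0952).

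Of 22 astrocyte genes tested, 5 were called higher and 0 lower, against 2.67% and 0.623% of all genes, with a median change of 0.42 log2 units. Without overlap, 8 were higher and 1 lower, against 14.5% and 5.66% of all genes. The calls rested on few libraries: 0 genes were called higher without 12 h replicate 3, 1 without 24 h replicate 1, 2 without 24 h replicate 3 and 3 without 12 h replicate 2. In a fit to the 6 libraries alone, 1 was called higher. Clu, the secreted chaperone clusterin, had 77.2, 55.9 and 59.9 FPKM at 24 h and 24.5, 27.4 and 14.1 FPKM at 12 h (log2 change 1.54, SE 0.318, limma adjusted p = 0.00965). Without 24 h replicate 1 or 12 h replicate 3 its adjusted p was 0.0566 or 0.0706. Aqp4, the water channel of astrocyte endfeet, had 60.2, 45.8 and 64.6 FPKM at 24 h and 39.8, 28.5 and 23.6 FPKM at 12 h, and its rise of 0.89 log2 units (limma adjusted p = 0.0128) was lost without 24 h replicate 1, 24 h replicate 3 or 12 h replicate 3 (adjusted p up to 0.0993).

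Gja1, the gap-junction protein connexin 43, had 203, 158 and 195 FPKM at 24 h and 128, 118 and 89.6 FPKM at 12 h (log2 change 0.73, limma adjusted p = 0.0208), and depended on the same 3 libraries (adjusted p up to 0.144). Gfap, the intermediate filament of astrocytes, had 235, 294 and 271 FPKM at 24 h and 194, 182 and 180 FPKM at 12 h, with a narrow 12 h range. Its log2 change was 0.52 (limma adjusted p = 0.0293), and the call was kept only without 24 h replicate 1 among the 6 leave-one-out fits (adjusted p up to 0.122 without the others). In (−)-JQ1, Gfap averaged 523 FPKM at 24 h and 293 FPKM at 12 h (log2 change 0.83, limma adjusted p = 0.00052). The difference between the enantiomers was −0.32 log2 units, with a 95% interval of −0.699 to 0.065. Glul, the glutamine synthetase that clears glutamate, also rose (log2 change 0.55, limma adjusted p = 0.0166), and its call was lost without 24 h replicate 1, 12 h replicate 2 or 12 h replicate 3 (adjusted p up to 0.108). S100b, with 4.19, 5 and 6.41 FPKM at 24 h and 4.81, 2.62 and 3.37 FPKM at 12 h, overlapped between the times.

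Of 19 neural stem and radial glia genes tested, 1 was called higher and 0 lower, against 2.67% and 0.623% of all genes. The called gene was Sox1, a transcription factor of neuroepithelial progenitors, with 44.5, 38.1 and 47.7 FPKM at 24 h and 28.8, 32.8 and 24.6 FPKM at 12 h (log2 change 0.58, limma adjusted p = 0.0208). The call was lost without 24 h replicate 1, 24 h replicate 3, 12 h replicate 1 or 12 h replicate 3 (adjusted p up to 0.137). Sox2, the stem cell factor of the same family, had 323, 254 and 276 FPKM at 24 h and 233, 233 and 255 FPKM at 12 h, and the intermediate filament nestin (Nes) had 107, 88.8 and 97.3 FPKM at 24 h and 102, 114 and 143 FPKM at 12 h, neither past the threshold (limma adjusted p = 0.439 and 0.466).

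Of 22 genes of the neuronal cytoskeleton and synapse, 6 rose and 0 fell with time under (+)-JQ1, against 2.67% and 0.623% of all genes. The median change was 0.27 log2 units, 17 of the 22 had a positive change, and 10 were higher and 0 lower without overlap, against 14.5% and 5.66% of all genes. Without 12 h replicate 3, 3 were called higher, and 2 in a fit to the 6 libraries alone. Dcx, the microtubule protein of migrating young neurons, had 31.1, 22.8 and 41.6 FPKM at 24 h and 14.4, 13.4 and 14.9 FPKM at 12 h. The 12 h libraries lay within 2 FPKM of each other and below every 24 h library, a log2 change of 1.07 (SE 0.175, limma adjusted p = 0.0016). Nsg2, an endosomal protein of neuronal dendrites and axons, had 37.6, 35.2 and 38.3 FPKM at 24 h and 24.4, 20.2 and 20.8 FPKM at 12 h (log2 change 0.74, SE 0.0903, limma adjusted p = 9.51e-05). Syt1, the calcium sensor of synaptic vesicles, had 5.39, 4.69 and 5.43 FPKM at 24 h and 2.73, 3.20 and 3.32 FPKM at 12 h (log2 change 0.60, limma adjusted p = 0.00789). These 3 genes stayed called with any 1 library left out, but Syt1 was not called in the fit to the 6 libraries alone (limma adjusted p = 0.0706).

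Snap25, a SNARE protein of synaptic vesicle release, had 5.73, 5.90 and 8.17 FPKM at 24 h and 3.52, 4 and 3.61 FPKM at 12 h, and its rise of 0.68 log2 units (limma adjusted p = 0.0131) was lost without 24 h replicate 3, 12 h replicate 1 or 12 h replicate 3 (adjusted p up to 0.0714). Syp, the vesicle protein synaptophysin, rose by 0.48 log2 units (limma adjusted p = 0.0111, but 0.0573 without 24 h replicate 1 and 0.0845 without 12 h replicate 3), and the tubulin-binding protein Stmn3 by 0.54 (limma adjusted p = 0.0482). The Stmn3 call was lost with any 1 library left out (adjusted p up to 0.163). Tubb3, the neuronal tubulin, had 165, 165 and 182 FPKM at 24 h and 101, 124 and 104 FPKM at 12 h, without overlap but just outside the threshold (log2 change 0.64, limma adjusted p = 0.0523). In (−)-JQ1 the neuronal list had 3 genes called higher and 0 lower, against 4.68% and 1.4% of all genes, and a median change of 0.16 log2 units. Dcx averaged 40.4 FPKM at 24 h and 28.9 FPKM at 12 h in (−)-JQ1 (limma adjusted p = 0.112), and the difference between the enantiomers was 0.59 log2 units, with a 95% interval of 0.079 to 1.11 and a limma adjusted p of 0.999 over all genes. At 0.5 µM (+)-JQ1 the list had 8 genes higher and 1 lower, against 2.77% and 1.44% of all genes. Dcx averaged 24.2 FPKM at 24 h and 9.06 FPKM at 12 h at that dose.

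Among 15 interneuron and ganglionic eminence genes tested, 3 were called higher and 0 lower under (+)-JQ1, against 2.67% and 0.623% of all genes, and the median change was 0.49 log2 units. Dlx5, a homeobox factor of interneuron precursors, had 6.33, 5.62 and 8.90 FPKM at 24 h and 1.68, 3.64 and 2.00 FPKM at 12 h (log2 change 1.23, limma adjusted p = 0.0228). Gad1, the enzyme that makes the transmitter GABA, had 7.33, 9.83 and 9.51 FPKM at 24 h and 4.18, 5.90 and 3.44 FPKM at 12 h (log2 change 0.86, limma adjusted p = 0.0317). For both, the 24 h libraries were all above the 12 h libraries. Dlx5 lost its call without 24 h replicate 1, 24 h replicate 3, 12 h replicate 1 or 12 h replicate 3 (adjusted p up to 0.108), and Gad1 without 24 h replicate 2, 24 h replicate 3, 12 h replicate 1 or 12 h replicate 3 (adjusted p up to 0.172). The zinc finger factor Sp8 was the other gene called (log2 change 0.62, limma adjusted p = 0.0407). The Sp8 call was kept only without 12 h replicate 2 (adjusted p up to 0.213 without the others). The list as a whole had 0 genes called without 24 h replicate 3, without 12 h replicate 1 or without 12 h replicate 3, and 1 without 24 h replicate 1 or without 24 h replicate 2. A fit to the 6 libraries alone also gave 0. Of 15 proneural factors, the zinc finger gene St18 alone was called, at 1.22, 0.686 and 1.09 FPKM at 24 h and 0.264, 0.362 and 0.0469 FPKM at 12 h (limma adjusted p = 0.0131), and that call was lost without 24 h replicate 1 or 12 h replicate 3 (adjusted p up to 0.0966). Only 24 h replicates 1 and 3 reached 1 FPKM, so St18 passed the filter of 1 FPKM in 3 libraries only with other groups. Its log2 change of 0.71 ranged from 0.60 to 1.88 across the alternative settings.

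**Figure D3:**
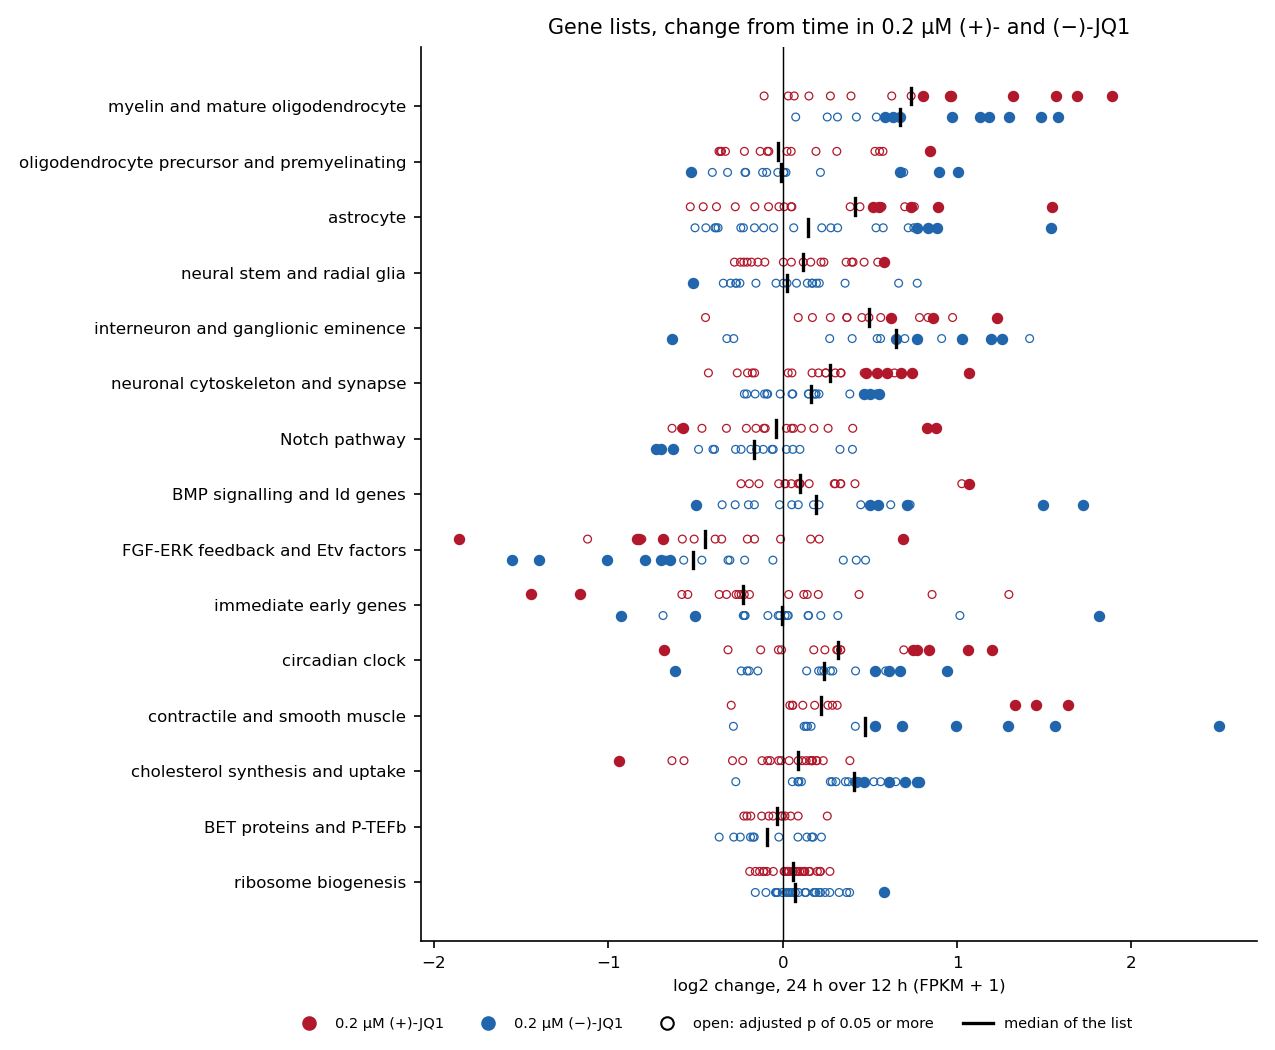
Log2 change from 12 to 24 h (horizontal axis, log2(FPKM + 1) units) of the tested members of 15 gene lists (rows), with 0.2 µM (+)-JQ1 above 0.2 µM (−)-JQ1 in each row. Points are genes and black ticks are medians. The median of the myelin list was 0.74 under (+)-JQ1 and 0.67 in (−)-JQ1.

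The clock genes Dbp, Per3, Nr1d2, Tef and Hlf rose and the clock activator Arntl fell under (+)-JQ1. The circadian clock is a feedback loop in which Clock and Arntl (Bmal1) drive genes with E-boxes, among them the Per genes and the PAR-domain factors Dbp, Tef and Hlf, and the Rev-erb receptors in turn repress Arntl. Of 17 clock genes tested, 5 were higher and 1 lower under (+)-JQ1, against 2.67% and 0.623% of all genes, with a median change of 0.32 log2 units, and 4 to 6 were higher and 1 lower under every alternative and with any 1 library left out. Dbp had 4.77, 6.02 and 3.43 FPKM at 24 h and 1.74, 1.35 and 1.29 FPKM at 12 h (log2 change 1.20, SE 0.150, limma adjusted p = 0.000102). Per3, a period gene of the repressing limb, had 5.55, 7.99 and 4.90 FPKM at 24 h and 2.32, 2.34 and 2.46 FPKM at 12 h (log2 change 1.06, SE 0.147, limma adjusted p = 0.000319). In both genes the 12 h libraries lay close together, and every 24 h library was above them.

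Nr1d2, the receptor Rev-erb beta, had 12.7, 10.2 and 9.91 FPKM at 24 h and 5.6, 5.46 and 5.87 FPKM at 12 h (log2 change 0.84, SE 0.140, limma adjusted p = 0.00187). Tef had 26.6, 34.1 and 24.0 FPKM at 24 h and 16.2, 15.4 and 16.4 FPKM at 12 h (log2 change 0.77, SE 0.126, limma adjusted p = 0.0016). Arntl, the positive limb, moved the other way, with 25.9, 20.5 and 25.4 FPKM at 24 h and 36.7, 38.2 and 41.6 FPKM at 12 h. All 3 of its 24 h values were below all 3 of its 12 h values, a log2 change of −0.68 (SE 0.109, limma adjusted p = 0.00125). Hlf rose as well, with 7.13, 5.66 and 6.17 FPKM at 24 h and 3.94, 3.42 and 2.76 FPKM at 12 h (log2 change 0.75, limma adjusted p = 0.0177), but not without 24 h replicate 1 (adjusted p = 0.0932) or 12 h replicate 3 (adjusted p = 0.112).

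In (−)-JQ1, 4 of the 17 genes were higher and 1 lower, against 4.68% and 1.4% of all genes. At 0.5 µM (+)-JQ1 6 were higher and 1 lower, against 2.77% and 1.44% of all genes. Arntl averaged 17.6 FPKM at 24 h and 27.3 FPKM at 12 h in (−)-JQ1 (log2 change −0.62, limma adjusted p = 0.00173), and the difference between the enantiomers was −0.07 log2 units with a 95% interval of −0.388 to 0.252. Tef averaged 23.2 FPKM at 24 h and 18.8 FPKM at 12 h in (−)-JQ1 (log2 change 0.27, limma adjusted p = 0.209), and its difference between the enantiomers was 0.50 log2 units, with a 95% interval of 0.125 to 0.867 and a limma adjusted p of 0.827.

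The promoters of 3 clock genes are shown because each holds a match to 1 of 3 short sequences tied to the loop. Each runs from 250 bases before to 50 bases after the annotated start (RefSeq, GRCm38.p6, gene strand, 5′ to 3′). Capitals mark the E-box CACGTG in Tef, the D-box TTATGNAA in Per3 and the Rev-erb half-site AGGTCA in Nr1d2, searched on both strands. The half-site was searched without its flanking bases. Per3 is at chr4:151044616-151044915 on the minus strand, Nr1d2 at chr14:18239057-18239356 on the minus strand, and Tef at chr15:81802423-81802722 on the plus strand, the first of its 2 annotated starts.
Per3: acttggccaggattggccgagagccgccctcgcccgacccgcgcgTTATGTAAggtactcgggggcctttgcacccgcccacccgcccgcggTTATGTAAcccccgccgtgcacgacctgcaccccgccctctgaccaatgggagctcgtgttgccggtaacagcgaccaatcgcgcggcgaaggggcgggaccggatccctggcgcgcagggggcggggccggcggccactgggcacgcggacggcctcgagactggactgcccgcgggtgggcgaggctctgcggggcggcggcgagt
Nr1d2: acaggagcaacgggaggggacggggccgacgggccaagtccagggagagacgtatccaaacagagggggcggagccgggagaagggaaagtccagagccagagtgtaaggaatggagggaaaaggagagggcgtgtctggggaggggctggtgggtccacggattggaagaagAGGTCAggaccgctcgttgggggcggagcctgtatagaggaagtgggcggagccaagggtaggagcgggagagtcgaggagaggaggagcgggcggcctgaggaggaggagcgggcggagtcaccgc
Tef: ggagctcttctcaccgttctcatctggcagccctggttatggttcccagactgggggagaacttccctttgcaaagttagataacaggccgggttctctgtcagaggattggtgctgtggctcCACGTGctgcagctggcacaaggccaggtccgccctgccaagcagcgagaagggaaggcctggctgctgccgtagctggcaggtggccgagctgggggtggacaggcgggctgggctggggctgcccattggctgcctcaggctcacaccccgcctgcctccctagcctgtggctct
Of the 15 clock genes with a window, 4 held the E-box (26.7%, against 8.09% of all 27025 genes in the table), 2 the D-box (13.3% against 3.99%) and 5 the half-site (33.3% against 18.1%). A gene was counted if the window of any of its annotated starts held the match. The windows at the first annotated start of Dbp, Hlf and Arntl held none of the 3. These are matches of letters in a window and no measurement of binding. The deposited values were made on another build (mm9), so the windows were matched by gene symbol alone.

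Etv5, Egfr, Spry4 and Spred3 of the FGF and ERK pathway fell, and Fgfr2 rose. The cells had been expanded in bFGF, whose receptor signals through ERK to the Etv factors and to feedback inhibitors such as the Sprouty, Spred and Dusp proteins. Of 16 genes tested, 1 was called higher and 4 lower under (+)-JQ1, against 2.67% and 0.623% of all genes, with a median change of −0.45 log2 units. Without overlap, 8 were lower, against 5.66% of all genes. The count of genes called lower was 2 without 24 h replicate 1, without 24 h replicate 3 or without 12 h replicate 3, and 1 in a fit to the 6 libraries alone. Etv5 had 5.6, 6.04 and 3.93 FPKM at 24 h and 22.4, 12.7 and 33.2 FPKM at 12 h, and its log2 change was −1.86 (SE 0.349, limma adjusted p = 0.00534). Even the lowest 12 h library had more than the highest 24 h library. Egfr, the EGF receptor, had 29.5, 26.2 and 26.8 FPKM at 24 h and 53.7, 42.2 and 53.1 FPKM at 12 h (log2 change −0.82, SE 0.167, limma adjusted p = 0.00761). In (−)-JQ1, Egfr averaged 17.7 FPKM at 24 h and 53.2 FPKM at 12 h (log2 change −1.55). The difference between the enantiomers was 0.73 log2 units, with a 95% interval of 0.240 to 1.22 and a limma adjusted p of 0.675.

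Spry4 had 0.611, 0.661 and 0.577 FPKM at 24 h and 1.85, 1.03 and 3.16 FPKM at 12 h (log2 change −0.84, limma adjusted p = 0.0263). It stayed called without 12 h replicate 2 and lost its call without any of the other 5 libraries (adjusted p up to 0.183). Spred3 had 1.63, 1.98 and 1.70 FPKM at 24 h and 3.08, 2.90 and 4.56 FPKM at 12 h (log2 change −0.69, limma adjusted p = 0.0232). The Spred3 call was lost without 24 h replicate 1, 24 h replicate 3 or 12 h replicate 3 (adjusted p up to 0.162). Dusp6, the ERK phosphatase, had 2.68, 2.23 and 1.95 FPKM at 24 h and 4.41, 3.65 and 13.3 FPKM at 12 h, with 12 h replicate 3 far above the rest (limma adjusted p = 0.102). The FGF receptor Fgfr2 had 26.6, 25 and 26.0 FPKM at 24 h and 14.8, 20.2 and 12.9 FPKM at 12 h (log2 change 0.69, limma adjusted p = 0.0126). Its adjusted p was 0.0558 without 24 h replicate 1, 0.0532 without 12 h replicate 1 and 0.0993 without 12 h replicate 3. In (−)-JQ1 the list had 0 genes higher and 6 lower, against 4.68% and 1.4% of all genes.

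Of 18 immediate early genes tested, which answer growth factor and stress signals within minutes, 0 were called higher and 2 lower, against 2.67% and 0.623% of all genes, with 1 called lower without 12 h replicate 3 and 4 without 12 h replicate 1. Egr1, a zinc finger factor induced by ERK, had 10.0, 9.77 and 10.1 FPKM at 24 h and 20.9, 29.1 and 39.3 FPKM at 12 h. The 24 h libraries were nearly equal and all below the 12 h libraries (log2 change −1.44, SE 0.208, limma adjusted p = 0.000448). Fos, a subunit of the AP-1 factor, had 3.50, 3.90 and 2.68 FPKM at 24 h and 5.79, 9.92 and 11.4 FPKM at 12 h (log2 change −1.17, SE 0.230, limma adjusted p = 0.00656), with an adjusted p of 0.0552 without 12 h replicate 3. Shc3, an adaptor of receptor tyrosine kinases in neurons, fell outside these lists, with 4.46, 3.62 and 2.94 FPKM at 24 h and 12.5, 7.48 and 12.7 FPKM at 12 h (log2 change −1.32, SE 0.228, limma adjusted p = 0.00229). In (−)-JQ1, Egr1 averaged 8.15 FPKM at 24 h and 16.8 FPKM at 12 h and Shc3 averaged 6.30 FPKM at 24 h and 14 FPKM at 12 h.

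Genes of G2 and mitosis were lower at 24 h under (+)-JQ1. All 29 tested had a negative change, with a median of −0.73 log2 units against 0.06 for all genes, and 24 of the 29 were lower without overlap, against 5.66% of all genes. Of these genes, 6 were called lower and 0 higher, against 0.623% and 2.67% of all genes, and 24 had an unadjusted p under 0.05, against 2151 of all 13801 genes. The count of calls moved with single libraries: 1, 0 and 0 genes were called lower without 24 h replicate 1, 2 and 3, and 4, 2 and 0 without 12 h replicate 1, 2 and 3. The list summed to 30.2, 26.2 and 21.6 FPKM at 24 h and 45.6, 57.9 and 124 FPKM at 12 h, so 12 h replicate 3, which also had the highest values of RNAs without a poly(A) tail, was the highest library. In (−)-JQ1 the list summed to 80.4, 82 and 60 FPKM at 24 h and 41.3, 50.3 and 92.8 FPKM at 12 h, where replicate 3 was again the highest of its time. Without that library the median of the list was −0.43 log2 units. The part of that library in the result was not tested further.

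Mki67, the Ki-67 protein of cycling cells, had 0.466, 0.276 and 0.124 FPKM at 24 h and 1.36, 1.96 and 3.40 FPKM at 12 h. All 24 h libraries were below 0.5 FPKM and all 12 h libraries above 1 FPKM, a log2 change of −1.29 (SE 0.3, limma adjusted p = 0.0189). The call was lost without 24 h replicate 2, 24 h replicate 3 or 12 h replicate 3 (adjusted p up to 0.127). Ube2c, the ubiquitin-conjugating enzyme of the anaphase-promoting complex, had 1.82, 2.96 and 2.32 FPKM at 24 h and 4.56, 6.23 and 13.8 FPKM at 12 h (log2 change −1.33, SE 0.332, limma adjusted p = 0.0291), and was called only with all libraries or without 12 h replicate 1 (adjusted p up to 0.175 without each of the other 5). Ccnb1, the cyclin B1 that starts mitosis, had 0.258, 0.416 and 0.103 FPKM at 24 h and 1.88, 1.91 and 5.53 FPKM at 12 h (log2 change −1.60, SE 0.419, limma adjusted p = 0.0412). Tpx2, a spindle assembly factor, had 1.27, 0.684 and 0.841 FPKM at 24 h and 3.53, 3.22 and 8.66 FPKM at 12 h (log2 change −1.57, SE 0.418, limma adjusted p = 0.0446). Both of these calls were lost with any 1 of the 6 libraries left out, at adjusted p values of up to 0.213 for Ccnb1 and 0.225 for Tpx2.

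Nusap1, a microtubule-binding protein of the spindle, had 0.516, 0.446 and 0.525 FPKM at 24 h and 1.74, 2.06 and 4.56 FPKM at 12 h (log2 change −1.27, limma adjusted p = 0.0283), and was not called without any 1 of the 3 libraries of 24 h or without 12 h replicate 3 (adjusted p up to 0.177). Plk1, the polo-like kinase of mitotic entry, had 0.712, 0.527 and 0.567 FPKM at 24 h and 1.20, 2.17 and 3.45 FPKM at 12 h (log2 change −0.97, limma adjusted p = 0.0315), and kept its call only without 12 h replicate 1 (adjusted p up to 0.200 without each of the others). In both genes every 24 h library was below every 12 h library.

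At 0.5 µM (+)-JQ1, 12 of the 29 genes were called lower and 0 higher, against 1.44% and 2.77% of all genes. The median change was −0.84 log2 units at that dose, and Mki67 averaged 0.315 FPKM at 24 h and 3.32 FPKM at 12 h. In (−)-JQ1, 0 of the 29 were called in either direction by limma, against 4.68% of all genes higher and 1.4% lower. There, 3 had an unadjusted p under 0.05 and the median change was 0.20 log2 units. Mki67 averaged 2.26 FPKM at 24 h and 1.81 FPKM at 12 h there. The difference in its change between the enantiomers was −1.49 log2 units, with a 95% interval of −2.38 to −0.606 and a limma adjusted p of 0.411. Over the list, all 29 differences between the enantiomers were negative, with a median of −0.96 log2 units. None passed with limma, the lowest adjusted p being 0.275, and 19 of 29 had an unadjusted p under 0.05. With a replicate block, 0 passed and 21 had an unadjusted p under 0.05.

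**Figure D4:**
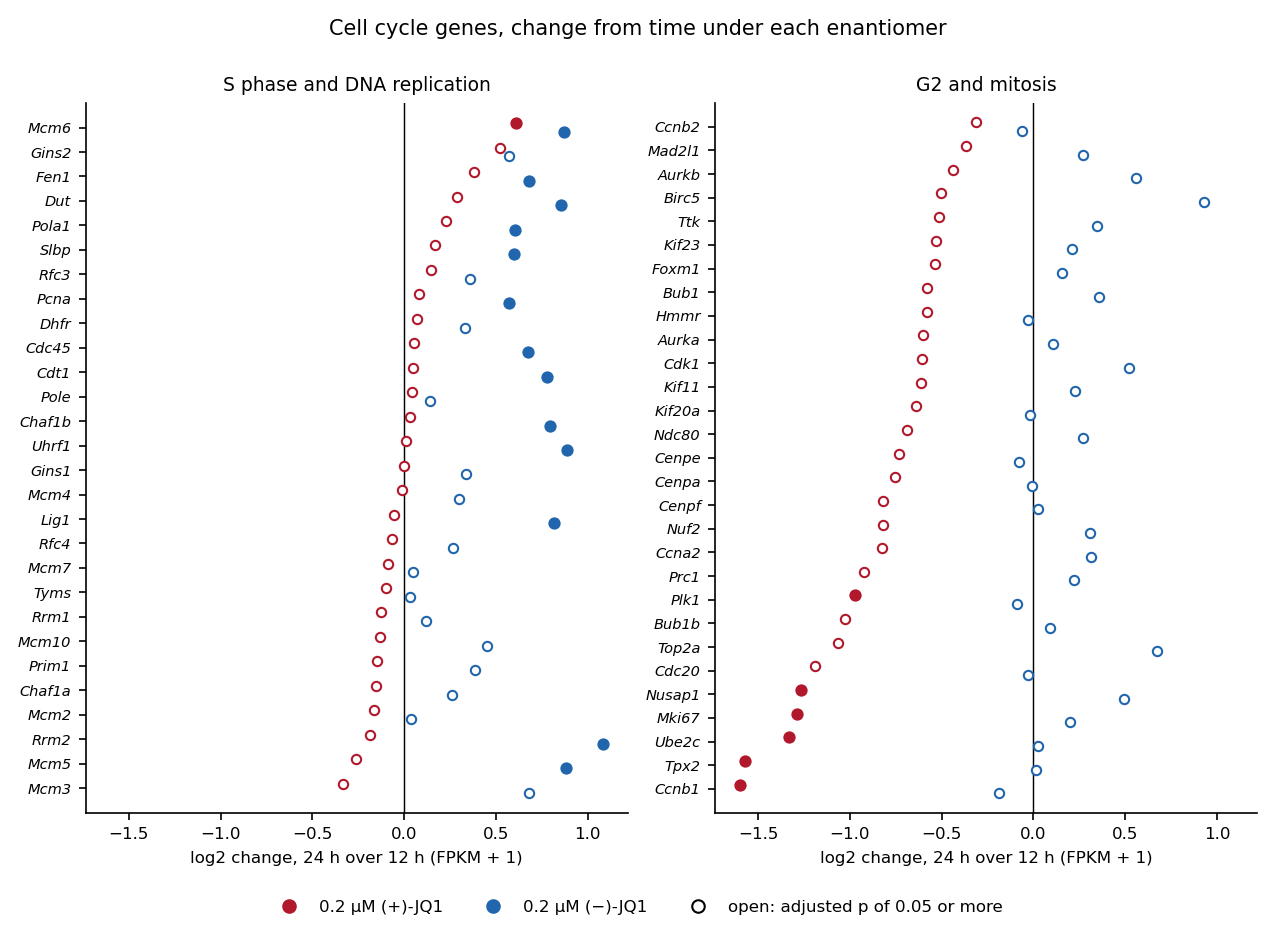
Log2 change from 12 to 24 h (log2(FPKM + 1) units) of the tested S phase genes and G2 and mitosis genes, under 0.2 µM (+)-JQ1 (red) and in 0.2 µM (−)-JQ1 (blue). Filled points passed limma's adjusted p under 0.05 and open points did not; all 29 mitosis genes lay below 0 under (+)-JQ1, and 13 of 28 S phase genes were filled and above 0 in (−)-JQ1.

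Of 28 S phase genes, 1 was called higher and 0 lower under (+)-JQ1, near the 2.67% and 0.623% of all genes. An unadjusted p under 0.05 was reached by 1 of the 28, against 2151 of all 13801 genes, and the median change was 0.01 log2 units. In (−)-JQ1, 13 of the 28 were called higher and 0 lower, against 4.68% of all genes, with a median change of 0.57 log2 units. Pcna, the sliding clamp of DNA replication, had 94.1, 86.0 and 83.5 FPKM at 24 h and 75.9, 78.5 and 95.9 FPKM at 12 h under (+)-JQ1, with overlapping groups (limma adjusted p = 0.819). In (−)-JQ1 it had 75.6, 73.1 and 65.0 FPKM at 24 h and 44.6, 46.2 and 52.2 FPKM at 12 h (log2 change 0.57, limma adjusted p = 0.00577). Rrm2, the ribonucleotide reductase subunit that makes deoxynucleotides, had 2.29, 2.04 and 1.32 FPKM at 24 h and 1.86, 1.62 and 3.58 FPKM at 12 h under (+)-JQ1. In (−)-JQ1 it had 9.60, 8.40 and 5.47 FPKM at 24 h and 2.76, 3.82 and 2.74 FPKM at 12 h (log2 change 1.08, limma adjusted p = 0.0119). The difference between the enantiomers was −0.49 log2 units for Pcna (95% interval −0.838 to −0.145, limma adjusted p = 0.750) and −1.27 for Rrm2 (95% interval −2.01 to −0.533, limma adjusted p = 0.386). Of the 28 differences, 0 passed with limma and 11 had an unadjusted p under 0.05. The 1 S phase gene called under (+)-JQ1 was the replicative helicase subunit Mcm6 (log2 change 0.61, limma adjusted p = 0.0248). The Mcm6 call was lost without 24 h replicate 1, 12 h replicate 1 or 12 h replicate 3 (adjusted p up to 0.147).

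The promoters of Ube2c and Mki67 are shown because mitosis genes are known to share 2 short elements, the CHR element TTTGAA and the CCAAT box. The windows are again 250 bases before to 50 bases after the start (RefSeq, GRCm38.p6, gene strand, 5′ to 3′), with CHR and CCAAT matches on either strand in capitals. Ube2c is at chr2:164769679-164769978 on the plus strand and Mki67 at chr7:135716330-135716629 on the minus strand.
Ube2c: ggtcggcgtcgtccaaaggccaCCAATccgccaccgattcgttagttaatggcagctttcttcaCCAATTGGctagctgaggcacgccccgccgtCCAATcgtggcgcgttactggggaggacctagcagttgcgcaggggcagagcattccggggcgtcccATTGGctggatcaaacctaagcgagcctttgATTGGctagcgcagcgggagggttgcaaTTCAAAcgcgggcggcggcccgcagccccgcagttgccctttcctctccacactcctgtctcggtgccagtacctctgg
Mki67: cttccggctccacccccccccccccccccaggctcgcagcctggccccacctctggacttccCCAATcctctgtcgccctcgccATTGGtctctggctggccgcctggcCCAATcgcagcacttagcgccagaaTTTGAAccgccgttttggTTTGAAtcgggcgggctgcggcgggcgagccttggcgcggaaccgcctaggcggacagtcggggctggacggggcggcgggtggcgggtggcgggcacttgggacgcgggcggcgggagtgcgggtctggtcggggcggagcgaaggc
In Ube2c, 1 pair of CCAAT matches on opposite strands overlaps and shows as a single stretch. Of 24 mitosis genes with a window, 17 held a CHR match (70.8%, against 20.2% of all 27025 genes in the table) and 19 a CCAAT match (79.2% against 41.1%). A gene was counted if the window of any of its annotated starts held the match. At the first annotated start, Plk1 held both, Ccnb1 the CCAAT box alone, and Nusap1 held neither. These too are matches of letters and no measurement of binding.

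Of 19 G1 cyclins and CDK inhibitors, 1 was called higher and 2 lower under (+)-JQ1, against 2.67% and 0.623% of all genes. Cdkn1c, the CDK inhibitor p57, had 12.2, 11.1 and 16.7 FPKM at 24 h and 51.0, 41.2 and 30.3 FPKM at 12 h. The highest 24 h library was well below the lowest 12 h library (log2 change −1.54, SE 0.246, limma adjusted p = 0.00143). Cdkn1a, the CDK inhibitor p21, had 8.04, 6.74 and 8.28 FPKM at 24 h and 19, 18.2 and 40.5 FPKM at 12 h (log2 change −1.54, SE 0.348, limma adjusted p = 0.0177), and lost its call without 24 h replicate 1, 24 h replicate 2 or 12 h replicate 3 (adjusted p up to 0.112). Cyclin D2 (Ccnd2), which drives the passage through G1, had 50.6, 33.8 and 37.3 FPKM at 24 h and 20.7, 24.1 and 29.4 FPKM at 12 h (log2 change 0.69, limma adjusted p = 0.0419), a call kept only without 24 h replicate 2 (adjusted p up to 0.223 without the others). In (−)-JQ1, Cdkn1c averaged 36.6 FPKM at 24 h and 67.9 FPKM at 12 h (log2 change −0.91, limma adjusted p = 0.0307).

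In the Notch pathway, in which ligands on 1 cell hold its neighbour in the progenitor state, 2 of 18 genes were called higher and 1 lower, against 2.67% and 0.623% of all genes. Jag1, a Notch ligand, had 13.2, 16.8 and 13.1 FPKM at 24 h and 7.28, 7.89 and 6.86 FPKM at 12 h. Its groups were far apart (log2 change 0.88, SE 0.130, limma adjusted p = 0.000561), and in (−)-JQ1 it averaged only 1.83 FPKM at 24 h and 1.93 FPKM at 12 h. Dner, a neuronal Notch ligand, had 109, 123 and 94.0 FPKM at 24 h and 64.9, 62.1 and 54.7 FPKM at 12 h (log2 change 0.83, SE 0.144, limma adjusted p = 0.00246). The feedback inhibitor Nrarp, a Notch target, had 27.8, 30.3 and 23.3 FPKM at 24 h and 45.4, 39.0 and 37.6 FPKM at 12 h (log2 change −0.57, limma adjusted p = 0.0266). The Nrarp call was kept only without 24 h replicate 2 (adjusted p up to 0.120 without the others). Hes5, the main Notch effector of neural progenitors, had 110, 248 and 110 FPKM at 24 h and 132, 145 and 125 FPKM at 12 h, with 24 h replicate 2 above and the other 24 h libraries below the 12 h range.

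Among the other signalling lists, set against 2.67% of all genes called higher and 0.623% called lower, 1 of 18 BMP genes was called higher, the ligand Bmp6, with 2.28, 1.99 and 1.58 FPKM at 24 h and 0.348, 0.590 and 0.273 FPKM at 12 h (log2 change 1.07, limma adjusted p = 0.0111, 0.0608 without 24 h replicate 1 and 0.0633 without 12 h replicate 3). Stat3, the transcription factor of gliogenic cytokines, fell to 46.7, 46.8 and 45.4 FPKM at 24 h, against 59.0, 64.3 and 67.6 FPKM at 12 h (log2 change −0.45, limma adjusted p = 0.00789, 0.0567 without 12 h replicate 3). The cytokine Cntf was the other of 14 JAK-STAT genes called (log2 change 0.89, limma adjusted p = 0.0463). The Cntf call was kept only without 12 h replicate 2 (adjusted p up to 0.232 without the others). Of 21 Wnt genes, 2 were higher and 1 lower. Nkd1, an inducible inhibitor of the Wnt pathway, had 4.22, 4.17 and 4.27 FPKM at 24 h and 6.38, 9.43 and 7.90 FPKM at 12 h, with 24 h values that hardly differed among themselves (log2 change −0.76, SE 0.132, limma adjusted p = 0.00246). Sfrp1, a secreted Wnt antagonist, had 57.4, 47.7 and 54.8 FPKM at 24 h and 29.6, 33.9 and 21.2 FPKM at 12 h (log2 change 0.91, limma adjusted p = 0.0172). The Sfrp1 call was lost without 24 h replicate 1, 24 h replicate 3 or 12 h replicate 3 (adjusted p up to 0.125). The Wnt receptor Fzd8 rose by 0.45 log2 units (limma adjusted p = 0.0448). The Fzd8 call was lost with any 1 library left out (adjusted p up to 0.162).

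Of 12 contractile genes, 3 were called higher under (+)-JQ1 and 0 lower, and of 28 axon guidance genes 4 were called higher and 0 lower, against 2.67% and 0.623% of all genes. Without 24 h replicate 1 or without 12 h replicate 1, each list had 2 called higher. A fit to the 6 libraries alone called 2 contractile genes and 0 guidance genes higher. Beside Tagln, the myosin light chain Myl9 had 19.4, 14.7 and 19 FPKM at 24 h and 6.32, 5.72 and 7.15 FPKM at 12 h (log2 change 1.33, SE 0.200, limma adjusted p = 0.00062). The actin-binding calponin Cnn2 had 37.6, 30.9 and 30.2 FPKM at 24 h and 6.12, 16.2 and 14.4 FPKM at 12 h (log2 change 1.45, limma adjusted p = 0.0159). The Cnn2 call was lost without 24 h replicate 1 or 12 h replicate 1 (adjusted p up to 0.0792). Smooth muscle actin, Acta2, did not follow them, with 63.7, 42.2 and 46.5 FPKM at 24 h and 38.8, 51.2 and 42.6 FPKM at 12 h (limma adjusted p = 0.624), while it averaged 127 FPKM at 24 h and 63.3 FPKM at 12 h in (−)-JQ1. Among the guidance genes, the semaphorin Sema5a had 2.68, 2.48 and 2.49 FPKM at 24 h and 1.40, 1.13 and 1.42 FPKM at 12 h (log2 change 0.62, limma adjusted p = 0.00477). Sema4d had 1.08, 1.62 and 0.962 FPKM at 24 h and 0.43, 0.416 and 0.33 FPKM at 12 h. Its log2 change was 0.66 (limma adjusted p = 0.00342), and 0.54 to 1.4 across the alternative settings. Only 24 h replicates 1 and 2 reached 1 FPKM, so Sema4d passed the filter of 1 FPKM in 3 libraries only with other groups. In a fit to the 6 libraries alone its limma adjusted p was 0.0696. The ephrin ligand Efnb2 rose by 0.50 log2 units (limma adjusted p = 0.0131). The Efnb2 call was lost without 24 h replicate 1 or 12 h replicate 1 (adjusted p up to 0.0694). The semaphorin receptor Plxnb2 rose by 0.59 log2 units (limma adjusted p = 0.0441). The Plxnb2 call was kept only without 24 h replicate 3 (adjusted p up to 0.214 without the others). Of 25 matrix and adhesion genes, Thbs1 was higher and the integrin Itgb8 lower, at 43.2, 39.6 and 41.0 FPKM at 24 h and 55.7, 68.8 and 61.4 FPKM at 12 h (log2 change −0.57, limma adjusted p = 0.0321). The Itgb8 call was kept only without 12 h replicate 1 (adjusted p up to 0.138 without the others). Markers of other cell types that make matrix stayed low: the pericyte and fibroblast list summed to 4.84 to 5.47 FPKM at 24 h and 4.07 to 5.39 FPKM at 12 h, with Rgs5 and Kcnj8 at 0. Pdgfrb of that list had 1.33, 1.43 and 1.61 FPKM at 24 h and 0.525, 0.4 and 0.364 FPKM at 12 h (log2 change 0.78, limma adjusted p = 0.0103, 0.0561 without 12 h replicate 3). The endothelial list summed to 2.28 to 3.12 FPKM at 24 h and 0.846 to 1.54 FPKM at 12 h, with Cdh5 and Cldn5 at 0, and the microglial list to 1.94 to 3.14 FPKM at 24 h and 2.76 to 3.89 FPKM at 12 h, with Aif1 and Ptprc at 0. The part of such cells in the matrix and contractile genes was not tested.

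Of 12 BET and P-TEFb genes, 0 were called in limma, near the 2.67% of all genes called higher and the 0.623% called lower, and 0 had an unadjusted p under 0.05. Brd2, a BET protein, had 116, 106 and 121 FPKM at 24 h and 126, 122 and 148 FPKM at 12 h. Hexim1, the P-TEFb inhibitor whose RNA is a known readout of BET inhibition, had 51.7, 52.2 and 52.0 FPKM at 24 h and 51.6, 51.1 and 59.8 FPKM at 12 h (limma adjusted p = 0.828), and averaged 20.5 FPKM at 24 h and 18.2 FPKM at 12 h in (−)-JQ1. Hexim1 was above its (−)-JQ1 mean in all 6 (+)-JQ1 libraries, at both times. Myc, a gene that BET inhibition is known to lower in many tumour cells, had 12.4, 11.7 and 11.6 FPKM at 24 h and 11.4, 12.8 and 17.2 FPKM at 12 h (limma adjusted p = 0.585), and averaged 33.2 FPKM at 24 h and 31.3 FPKM at 12 h in (−)-JQ1. Other lists with 0 calls in limma were the Myc network (12 genes, 1 with an unadjusted p under 0.05), the histone genes (26, 1), ribosome biogenesis (29, 0), glycolysis (23, 7), fatty acid synthesis (17, 3), polyamine metabolism (13, 2), interferon response (16, 3), Hedgehog signalling (8, 2), ependyma (5, 1), endothelium (1, 1) and microglia (1, 0).

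The p53, unfolded protein response, cholesterol and chromatin enzyme lists held 1 call each, of 22, 23, 23 and 30 genes. Of all genes, 2.67% were called higher and 0.623% lower. The 1 call higher in the unfolded protein response list and in the chromatin enzyme list was near that share. Trp53inp1, a p53 target that promotes autophagy and cell death, had 41.8, 34.4 and 42.1 FPKM at 24 h and 54.8, 57.1 and 68.1 FPKM at 12 h (log2 change −0.59, limma adjusted p = 0.0117, but 0.0648 without 24 h replicate 2 and 0.0906 without 12 h replicate 3). Pdia4, a disulfide isomerase of the endoplasmic reticulum, had 123, 97.8 and 110 FPKM at 24 h and 83.8, 81.7 and 82.3 FPKM at 12 h (log2 change 0.40, limma adjusted p = 0.0159). The Pdia4 call was lost without 24 h replicate 1, 12 h replicate 2 or 12 h replicate 3 (adjusted p up to 0.106). In both genes the times did not overlap. Tm7sf2, a sterol reductase of cholesterol synthesis, had 3.48, 9.02 and 5.54 FPKM at 24 h and 11.4, 12.9 and 11.0 FPKM at 12 h (log2 change −0.94, limma adjusted p = 0.0419). The Tm7sf2 call was kept only without 24 h replicate 2 (adjusted p up to 0.233 without the others). The DNA methyltransferase Dnmt3a had 16.2, 18.2 and 17.7 FPKM at 24 h and 13.3, 13.4 and 10.9 FPKM at 12 h (log2 change 0.44, limma adjusted p = 0.0394). The Dnmt3a call was lost with any 1 library left out (adjusted p up to 0.212). In (−)-JQ1, 6 of the 23 cholesterol genes were called higher and 0 lower, against 4.68% and 1.4% of all genes. Their median change was 0.41 log2 units there and 0.09 under (+)-JQ1. Of the 23 differences between the enantiomers, 0 passed with limma and 7 had an unadjusted p under 0.05. Hmgcs1, an early enzyme of that pathway, had 201, 142 and 208 FPKM at 24 h and 325, 230 and 301 FPKM at 12 h under (+)-JQ1 (limma adjusted p = 0.174).

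Rn7sk, the 7SK RNA that holds P-TEFb inactive, had the largest fall among the named genes, with 41.3, 50.1 and 81.4 FPKM at 24 h and 456, 253 and 993 FPKM at 12 h (log2 change −3.11, SE 0.787, limma adjusted p = 0.0397). It lost its call without any 1 library other than 12 h replicate 2 (adjusted p up to 0.183). 7SK has no poly(A) tail, and the 5S RNA genes moved with it in these poly(A)-selected libraries. In (−)-JQ1 it had 14.5, 17.8 and 102 FPKM at 24 h and 240, 133 and 436 FPKM at 12 h, again lower at 24 h in each library (log2 change −2.96, limma adjusted p = 0.035). The share of RNA without a poly(A) tail that passed the selection was not measured. Other named falls were Slc25a18, a mitochondrial glutamate carrier, with 4.39, 6.34 and 3.07 FPKM at 24 h and 14.2, 7.68 and 17.2 FPKM at 12 h (log2 change −1.30, limma adjusted p = 0.0417). The Slc25a18 call was lost without 24 h replicate 1, 24 h replicate 3, 12 h replicate 1 or 12 h replicate 3 (adjusted p up to 0.198). The unannotated transcript 6530418L21Rik had 8.17, 7.85 and 5.65 FPKM at 24 h and 22, 14.6 and 41.2 FPKM at 12 h (log2 change −1.60, limma adjusted p = 0.0184), and 12 h replicate 3 was again the highest library. Its call was lost without any 1 library of 24 h or without 12 h replicate 3 (adjusted p up to 0.114). LOC100862241 fell by 1.40 log2 units (limma adjusted p = 0.0214). The LOC100862241 call was lost without 24 h replicate 2, 12 h replicate 1 or 12 h replicate 3 (adjusted p up to 0.115).

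The scatter plot sets the changes with time in the 2 enantiomers, which share no library, side by side. Of the 369 genes higher under (+)-JQ1, 191 were also called higher in (−)-JQ1, 51.8% of the 369 and 29.6% of the 646 higher in (−)-JQ1. The share of all genes called higher in (−)-JQ1 was 4.68%. Of the 86 lower, 40 were also lower in (−)-JQ1, 46.5% of that list and 20.7% of 193, against 1.4% of all genes. The sign was the same in (−)-JQ1 for 361 of the 369 and for 80 of the 86. Among all 13801 genes tested, 8087 had a positive change in (−)-JQ1. The median change of the 369 was 0.67 log2 units under (+)-JQ1 and 0.52 in (−)-JQ1, and that of the 86 was −0.69 under (+)-JQ1 and −0.44 in (−)-JQ1. These genes were chosen for their change under (+)-JQ1. The 646 and 193 genes chosen for their change in (−)-JQ1 gave the opposite order, with medians of 0.35 under (+)-JQ1 and 0.65 in (−)-JQ1 for the higher genes, and −0.30 under (+)-JQ1 and −0.55 in (−)-JQ1 for the lower ones. With the higher dose of (+)-JQ1, 179 of the higher genes (48.5%) and 60 of the lower genes (69.8%) were shared. At that dose, 2.77% and 1.44% of all genes were called higher and lower. Of the 13801 genes tested, 93 were called higher and 27 lower in all 3 time courses.

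**Figure D5:**
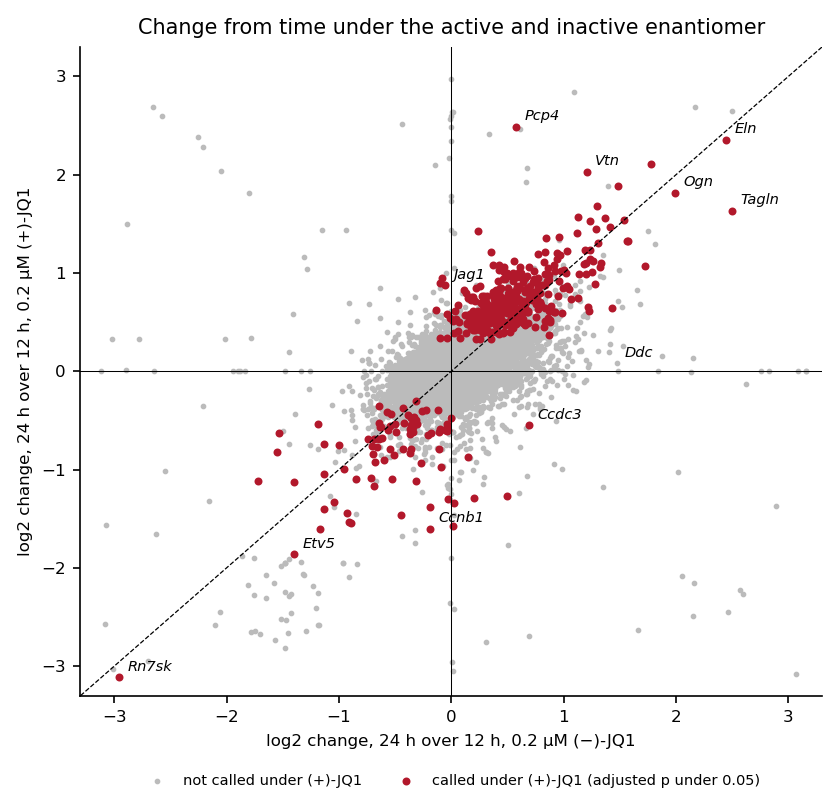
Log2 change from 12 to 24 h under 0.2 µM (+)-JQ1 (vertical axis) against that in 0.2 µM (−)-JQ1 (horizontal axis), in log2(FPKM + 1) units, 1 point per gene tested, with both axes limited to ±3.3. Red points were called under (+)-JQ1, grey points were not, and the dashed line marks equal change; 35 genes, of which 0 were called, lie outside the axes, and 191 genes were called higher in both.

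A direct test of the difference in change between the enantiomers passed for 3 of 13801 genes (0.0217%), with 611 at an unadjusted p under 0.05. Pcp4 rose more under (+)-JQ1 than in (−)-JQ1, where it averaged 21.5 FPKM at 24 h and 14 FPKM at 12 h (limma adjusted p = 0.127). The difference was 1.91 log2 units, with a 95% interval of 1.25 to 2.57 (limma adjusted p = 0.0268), and leaving out single libraries took its adjusted p up to 0.149. Ccdc3, a secreted coiled-coil protein, had 0.476, 0.500 and 1.03 FPKM at 24 h and 1.32, 1.55 and 1.37 FPKM at 12 h under (+)-JQ1, and averaged 6.14 FPKM at 24 h and 3.40 FPKM at 12 h in (−)-JQ1. It fell in the active enantiomer (limma adjusted p = 0.0288, up to 0.143 with single libraries left out) and rose in the inactive one (limma adjusted p = 0.0039), a difference of −1.24 log2 units (95% interval −1.65 to −0.841, limma adjusted p = 0.0162, up to 0.0961 with single libraries left out). Ddc, the enzyme that makes dopamine and serotonin from their precursors, had 0.143, 0.0501 and 0.149 FPKM at 24 h and 0.0487, 0.0495 and 0.0492 FPKM at 12 h under (+)-JQ1, and passed the filter on low values only through (−)-JQ1 libraries, so no change under (+)-JQ1 could be measured for it. In (−)-JQ1 it averaged 4.23 FPKM at 24 h and 0.907 FPKM at 12 h (log2 change 1.47, limma adjusted p = 3.45e-06). The difference was −1.39 log2 units (95% interval −1.79 to −0.979, limma adjusted p = 0.00754, up to 0.0393 with single libraries left out). With a pseudocount of 0.1 FPKM in place of 1, the adjusted p of these differences was 0.105 for Pcp4, 0.276 for Ccdc3 and 0.511 for Ddc.

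Several further genes of interest differed in size without passing. Jag1 had a difference of 0.93 log2 units (95% interval 0.549 to 1.31, limma adjusted p = 0.121) and Nsg2 one of 0.59 (95% interval 0.328 to 0.860, limma adjusted p = 0.160). The potassium channel gene Kcnd3 had 20.2, 18 and 20.5 FPKM at 24 h and 17.5, 17.2 and 15.6 FPKM at 12 h under (+)-JQ1, and averaged 21.1 FPKM at 24 h and 30.6 FPKM at 12 h in (−)-JQ1 (difference 0.74, limma adjusted p = 0.134). The small heat shock protein Cryab had 2.30, 1.52 and 1.87 FPKM at 24 h and 1.92, 1.5 and 1.84 FPKM at 12 h under (+)-JQ1, and averaged 22.6 FPKM at 24 h and 11.3 FPKM at 12 h in (−)-JQ1 (difference −0.86, limma adjusted p = 0.133). LOC100862121 and the BMP-binding protein Bmper had differences of 0.67 and 0.83 log2 units (limma adjusted p = 0.273 each). Islr, Bfsp2, Cd82 and Man1c1 had differences of −0.92, −1.04, −0.89 and −0.83 log2 units (limma adjusted p = 0.101, 0.133, 0.162 and 0.273). All 4 were called higher with time in (−)-JQ1 and not called under (+)-JQ1. Islr stood at 0.383 to 0.743 FPKM and Bfsp2 at 0.0613 to 0.252 FPKM in the libraries of 0.2 µM (+)-JQ1. Both passed the filter on low values only through (−)-JQ1 libraries, so the pseudocount of 1 FPKM kept their change under (+)-JQ1 small. Between the doses of (+)-JQ1, 0 of 13801 differences in the change with time passed with limma (0%), and 341 had an unadjusted p under 0.05.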

How the data were processed

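Poly(A)-selected RNA of 24 libraries was sequenced as single-end reads. Reads were handled with FastQC and TopHat2 on mm9, per the submitters' processing notes, which give no versions. What computed the FPKM values, on which annotation, is not given in the sources used here. As for the values, the deposited unit is FPKM per gene symbol, with 26694 entries a table; 58 entries of 29 repeated symbols were left out and 26636 kept. FPKM hides the read count, so no count test was run; relative depth was read from the step that 1 read makes in low genes (19% to 21.6% of 1849 to 2026 low genes lay at that ratio).

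A gene was tested if 3 or more of the 24 libraries had 1 FPKM or more, and the test was made on log2(FPKM + 1) with limma 3.58.1 in R 4.3.3 (8 group means, empirical Bayes with trend and robust options, Benjamini-Hochberg adjustment, two-sided, called at an adjusted p under 0.05). The spread between the 3 libraries of a group, which the labels call independent preparations, is the error. An exact permutation test of 3 against 3 cannot go below p = 0.1. The fit was also run on simulated data with known changes, drawn with independent noise in each library. Effects shared by libraries were not simulated, so that run gives no support on them, and its outcome is not reported here.

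The members and all 38 gene lists were chosen with earlier results of these data known. Named genes were the 12 largest rises and 12 largest falls among called genes with a mean of at least 5 FPKM in the higher group and no overlap, short RNA genes left out; the 6 and 6 enantiomer differences under the same level condition, filled with those of lowest p; up to 4 called members of each list; and a fixed panel. Ddc is below the level condition, and Ddc, Cnp, Ugt8a, Gm98, Hlf, Arntl, Fgfr2, Dusp6, Nusap1, Plk1, Pcna, Rrm2, Acta2 and the uncalled list members with values were chosen after their values were seen. Promoters were matched by symbol to a RefSeq table of GRCm38.p6. Alternatives are given in the closing section. Results for some genes are not reported here.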

Additional observations from a re-analysis of the deposited data

Results flagged for a closer look

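The change from 12 to 24 h differed between 0.2 µM (+)-JQ1 and 0.2 µM (−)-JQ1 in 3 genes, by limma's test of the difference itself. The difference, (+)-JQ1 minus (−)-JQ1 on the log2(FPKM + 1) scale, was 1.91 for Pcp4, −1.24 for Ccdc3 and −1.39 for Ddc. Pcp4 rose under (+)-JQ1, Ddc rose in (−)-JQ1, and Ccdc3 fell under (+)-JQ1 and rose in (−)-JQ1. Ddc was at 0.0487 to 0.149 FPKM under 0.2 µM (+)-JQ1 and passed the filter only through (−)-JQ1 libraries, so its difference is that of its values in (−)-JQ1 and compares no measurable change under (+)-JQ1. None of the 3 passed with a pseudocount of 0.1 FPKM (limma adjusted p = 0.105, 0.276 and 0.511), and the cause was not tested.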

How the results depend on the processing

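Under 0.2 µM (+)-JQ1 the counts of genes higher and lower at 24 h were 738 and 206 with array quality weights, and 110 and 17 in a fit to those 6 libraries alone, which has fewer residual degrees of freedom. Leaving out 1 library at a time gave 141 to 323 higher and 28 to 69 lower. With a replicate block the counts were 468 and 133. The deviations of same-numbered libraries correlated only weakly between the times (0.0659, 0.136 and 0.043). Of the 24 h libraries, replicates 1 and 2 correlated best with the 12 h library of the same number, and replicate 3 with 12 h replicate 1. Whether a number marks a shared preparation was not settled by these values. Between the 12 h libraries of (+)-JQ1 and (−)-JQ1 at 0.2 µM the correlations were 0.105, 0.133 and 0.112, and between their 24 h libraries −0.196, −0.345 and −0.00381; with the block, 4 enantiomer differences were called. In (−)-JQ1 the counts were 222 and 54 with weights and 69 and 12 with only its own groups, the lower count was 350 after scaling by the median of ratios and 511 without the 2 libraries high in Mir5105, and leaving out single libraries gave 341 to 1397 and 85 to 309. At 0.5 µM (+)-JQ1 they were 1555 and 794 with weights, 660 and 362 without those 2 libraries, 231 and 130 with only its own groups, 320 lower after scaling, and 110 to 638 and 60 to 261 with single libraries left out. The enantiomer difference was called for 0 genes with a pseudocount of 0.1 FPKM, with weights or with only the groups compared, for 1 after scaling and for 1 without the 2 libraries, and for 1 to 4 with single libraries left out. The cause was not tested.

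Of 73 named genes called, 21 were called under every one of 14 settings and 29 with any 1 library left out, and all 73 kept their sign. The G2 and mitosis list had 10 genes called lower with a pseudocount of 0.1 FPKM, 1 with no filter on low values, 1 in the fit to 6 libraries and 0 without the 2 libraries high in Mir5105. FPKM values give no read counts, so the depth behind low genes such as Ddc, Ccnb1 and Mki67 is unknown beyond the relative depths given.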

Other observations

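In the 24 h libraries under 0.2 µM (+)-JQ1, the vascular receptor Kdr had 2.47, 2.02 and 1.89 FPKM, against 0.374, 1.02 and 0.443 FPKM at 12 h (limma adjusted p = 0.0524), while the endothelial genes Cdh5 and Cldn5 were listed at 0 in all 6 libraries. Ctgf, a matricellular growth factor, had 11.2, 10.5 and 8.85 FPKM at 24 h and 1.59, 5.17 and 4.82 FPKM at 12 h, without overlap but not past the threshold (limma adjusted p = 0.162). Apoe, the lipid carrier of glia, had 2750, 3830 and 2320 FPKM at 24 h and 2260, 1290 and 1740 FPKM at 12 h (limma adjusted p = 0.103). Nr1d1, the receptor Rev-erb alpha, had 12.3, 21.1 and 9.76 FPKM at 24 h and 7.79, 7.52 and 8.96 FPKM at 12 h (log2 change 0.69, limma adjusted p = 0.0544).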
